A study of Mus musculus with 9 samples.

Results

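The variable (V) gene segments of the mouse immunoglobulin loci were followed through RNA immunoprecipitation sequencing (RIP-seq) of phosphorylated UPF1 (p-UPF1). Members were the rows of the gene count table whose NCBI Gene ID maps to a symbol beginning with Ighv, Igkv or Iglv and a number. This gave 226 of 27179 gene IDs, of which 120 were heavy-chain segments (Ighv, chromosome 12), 103 were kappa segments (Igkv, chromosome 6) and 3 were lambda segments (Iglv, chromosome 16). The cells were splenic B cells of wild-type mice, obtained as the CD43- fraction and activated for 72 hours with CD40L (5 ug/mL; the study's methods name an antibody to CD40), anti-IgM antibody (10 ug/mL) and IL-4 (20 ng/mL). All 9 libraries share this genotype and treatment, and by their labels the 3 groups differ only in the RNA they hold. The 3 Input libraries hold RNA of the lysate, the 3 IgG libraries hold RNA recovered with normal rabbit IgG, and the 3 p-UPF1 libraries hold RNA recovered with anti-p-UPF1. The labels give no age. The columns of the table carry the letters A, B and C in each group, and the sources used here do not say whether a shared letter marks one lysate. The study calls its plotted data points biological replicates in general, but the labels do not say that libraries of a group came from separate cultures. The p-values therefore measure the spread between these libraries, which may be technical.

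A V segment is the germline piece of DNA that encodes most of an antibody's variable domain. RAG1 and RAG2 join a heavy V segment to D and J segments, and a kappa or lambda V segment to a J segment, and the joined gene is transcribed from the promoter of the V segment and spliced to a constant region. Joins that shift the reading frame create premature stop codons, and nonsense-mediated mRNA decay (NMD), for which the RNA helicase UPF1 is essential, removes such transcripts. UPF1 is phosphorylated while it acts in NMD. In a mature B cell population each cell uses few V segments. A segment's level in Input therefore reads how many cells use it and how much RNA each makes. In these bulk libraries, fewer cells that use a segment and less of its RNA per cell cannot be told apart. In a precipitate, the level also depends on how much of that RNA was recovered. Levels are relative to the other RNA of a library, so a lower level need not mean a smaller amount of the segment's RNA.

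The 3 lambda segments are shown first, since they parted from each other in the immunoprecipitates. The first 300 bases of their V exon are given 5′ to 3′ from GRCm38 (mm10). Capitals in Iglv2 and Iglv3 mark bases that differ from Iglv1, or have no counterpart in it, in a global alignment.
Iglv1 (chr16:19085022-19085321, minus strand): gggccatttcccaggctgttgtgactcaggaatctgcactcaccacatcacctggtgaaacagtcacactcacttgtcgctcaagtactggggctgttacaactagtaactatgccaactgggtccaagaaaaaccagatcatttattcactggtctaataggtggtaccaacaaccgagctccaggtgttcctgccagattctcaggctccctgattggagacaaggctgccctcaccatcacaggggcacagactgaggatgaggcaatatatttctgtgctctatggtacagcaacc
Iglv2 (chr16:19260406-19260705, minus strand): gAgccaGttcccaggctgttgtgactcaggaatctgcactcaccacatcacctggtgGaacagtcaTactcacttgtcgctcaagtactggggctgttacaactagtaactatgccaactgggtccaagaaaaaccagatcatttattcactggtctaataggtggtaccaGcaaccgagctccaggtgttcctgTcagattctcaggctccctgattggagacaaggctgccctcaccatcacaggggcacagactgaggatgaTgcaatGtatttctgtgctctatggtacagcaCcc
Iglv3 (chr16:19241231-19241530, minus strand): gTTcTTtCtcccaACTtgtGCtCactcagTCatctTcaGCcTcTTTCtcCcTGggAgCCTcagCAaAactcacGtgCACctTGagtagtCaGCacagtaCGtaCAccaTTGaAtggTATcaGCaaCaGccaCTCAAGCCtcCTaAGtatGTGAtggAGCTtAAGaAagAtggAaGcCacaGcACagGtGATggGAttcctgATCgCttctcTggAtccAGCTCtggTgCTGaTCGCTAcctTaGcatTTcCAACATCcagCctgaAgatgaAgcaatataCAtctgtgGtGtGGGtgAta
Iglv1 and Iglv2 were 97.0% identical over 303 aligned bases (9 differences), whereas Iglv3 was 59.1% identical to Iglv1 over 296 aligned bases (121 differences). None of the 50-base windows in the exons of Iglv3 occurred in another annotated V segment, against 25.2% of the windows of Iglv1 and 25.3% of those of Iglv2. Over all members, 47 shared no window, 70 shared under 10% and 29 shared over 50%, so counts of closely related segments are uncertain as to which copy they belong to.

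V promoters hold a conserved octamer, bound by the OCT transcription factors. Of the 128 members annotated with a leader exon, 96 (75%) had ATGCAAAT on either strand in the 300 bases from 250 before to 50 after the annotated start, which for V segments is a translation start rather than a transcription start. The same 8 letters were in 474 of 27025 RefSeq promoters of this length (1.75%). The octamer was in 21 of 25 such Ighv segments, 72 of 100 Igkv segments and all 3 Iglv segments. Windows around it are shown for a few segments described below, with the octamer or its reverse complement in capitals.
Ighv1-64 (chr12:115508049-115508116, minus strand): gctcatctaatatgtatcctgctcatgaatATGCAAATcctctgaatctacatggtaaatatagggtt
Ighv5-2 (chr12:113579084-113579151, minus strand): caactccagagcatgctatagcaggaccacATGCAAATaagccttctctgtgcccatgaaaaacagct
Igkv14-111 (chr6:68256283-68256350, plus strand): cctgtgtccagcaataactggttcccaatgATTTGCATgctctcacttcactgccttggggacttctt
Iglv1 (chr16:19085528-19085595, minus strand): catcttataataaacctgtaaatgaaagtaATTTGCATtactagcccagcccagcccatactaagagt
Iglv3 (chr16:19241739-19241806, minus strand): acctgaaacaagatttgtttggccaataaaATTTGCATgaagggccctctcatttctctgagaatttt
Light-chain windows carry the motif in the reverse orientation to the Ighv windows shown. Iglv1, which fell in the p-UPF1 libraries, and Iglv3, which was not called lower there, both had it.

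Each unrearranged V segment is followed by a recombination signal that begins with a heptamer, and this signal is lost from a rearranged gene. The consensus heptamer CACAGTG stood within 12 bases after the V exon of 165 of 226 members (73.0%; 78 of 120 Ighv, 87 of 103 Igkv and 0 of 3 Iglv), against 4 members (1.77%) in a window of the same length 100 bases further on. For 4 abundant segments chosen among those that hold it, the last 20 bases of the V exon and the next 40 bases are shown, with the heptamer in capitals.
Ighv1-26 (chr12:114788332-114788391, minus strand): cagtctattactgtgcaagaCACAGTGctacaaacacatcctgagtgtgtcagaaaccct
Ighv1-82 (chr12:115952498-115952557, minus strand): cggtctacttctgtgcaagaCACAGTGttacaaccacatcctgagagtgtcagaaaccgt
Igkv14-111 (chr6:68256850-68256909, plus strand): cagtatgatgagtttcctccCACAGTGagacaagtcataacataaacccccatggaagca
Igkv1-135 (chr6:67610489-67610548, plus strand): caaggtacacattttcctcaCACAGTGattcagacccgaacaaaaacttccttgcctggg
In these 4 the heptamer began at the first base after the annotated exon. The windows of Igkv10-96 and Iglv1, which are as abundant, did not hold these letters.

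The libraries held 17372510 to 24945286 counts. V segments took 26871 to 33048 counts in the Input libraries, 11416 to 12800 in the IgG libraries and 5647 to 5936 in the p-UPF1 libraries. Over V segments with at least 20 counts in a pair of libraries, chi-square per degree of freedom between libraries of a group was 1.07 to 1.2 for Input, 1.11 to 1.3 for p-UPF1 and 3.84 to 4.47 for IgG, so the IgG libraries varied beyond sampling noise in V usage; over all genes every pair exceeded sampling noise (1.38 to 9.94). The B cell markers Ms4a1, Cd79a, Cd79b, Pax5 and Cd22 were all expressed, with Ms4a1 at 368 to 739.9 CPM (counts scaled to each library's size with TMM factors). T cell markers Cd3e, Cd3d, Cd3g, Cd4 and Cd8a did not exceed 0.365 CPM in any library, although Lck stood at 61.3 to 101 CPM. Of the 6 myeloid markers only Adgre1 stood above 1 CPM, at 56.5 to 138 CPM. Of the 6 plasma cell markers 5 were tested, and in p-UPF1 over IgG 2 were called higher (Irf4 and Sdc1, against 22.2% of all genes) and 2 lower (Prdm1 and Jchain, against 21.9%), while Xbp1 had a log2FC of -0.82 and Tnfrsf17 had no count. The list summed to 767 to 793 CPM in Input and to 1592 to 1648 CPM in p-UPF1 libraries, of which Irf4 was 502 and 1487 CPM, and its part in the results was not tested.

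V segments made up less of the p-UPF1 libraries than of the IgG libraries, and less of the IgG libraries than of Input. The share was taken over all 226 members with no filter. Ighv took 0.0493%, 0.0498% and 0.0503% of counts in Input A, B and C, then 0.027%, 0.0297% and 0.0268% in IgG, and 0.0108%, 0.0124% and 0.012% in p-UPF1. Igkv took 0.0751%, 0.0782% and 0.077% in Input, 0.0338%, 0.0354% and 0.0334% in IgG, and 0.00955%, 0.0101% and 0.00941% in p-UPF1. The lambda segments took 0.00816%, 0.00803% and 0.0079% in Input, 0.00493%, 0.0039% and 0.00419% in IgG, and 0.00326%, 0.00304% and 0.00285% in p-UPF1. In each of the 3 chains every p-UPF1 library lay below every IgG library, and every IgG library below every Input library.

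**Figure D1:**
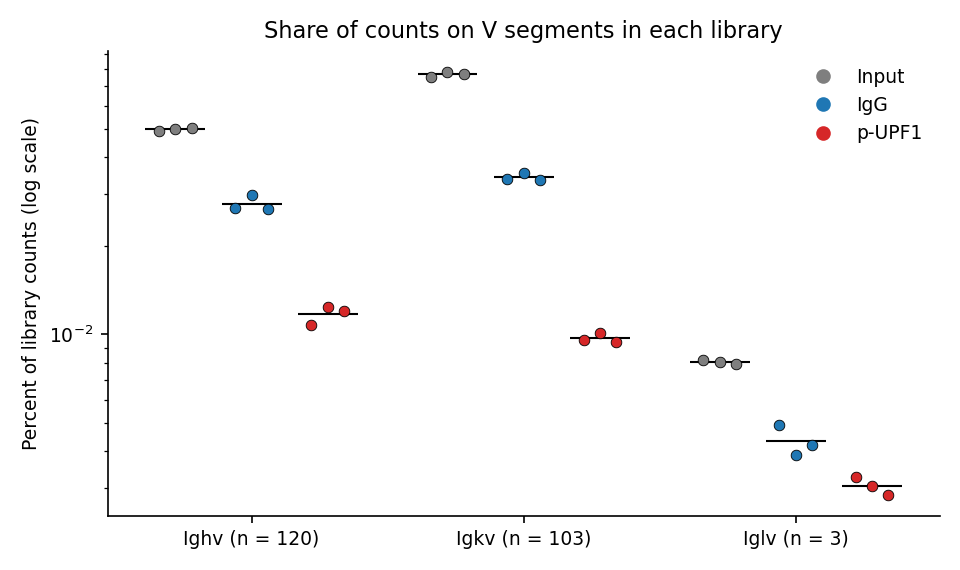
Percent of each library's counts on Ighv, Igkv and Iglv segments (log scale) for 3 Input, 3 IgG and 3 p-UPF1 libraries; points are libraries and lines are group means. Igkv falls from a mean of 0.0768% in Input to 0.00969% in p-UPF1, whereas Iglv falls from 0.00803% to 0.00305%.

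On the log2 scale, the Ighv share differed by -1.25 between p-UPF1 and IgG (2.37-fold lower), the Igkv share by -1.82 (3.53-fold lower) and the Iglv share by -0.51 (1.42-fold lower). Against Input the p-UPF1 shares were 4.25-fold lower for Ighv, 7.93-fold lower for Igkv and 2.64-fold lower for Iglv. The IgG libraries themselves were 1.79-fold, 2.25-fold and 1.86-fold below Input for Ighv, Igkv and Iglv. Each of these 9 differences separated the groups completely, with an exact two-sided permutation p = 0.1, the smallest that 3 against 3 libraries can give, and an adjusted p = 0.123 over the 27 such comparisons made. The lambda value rests on Iglv1: without the segment with the most counts of each chain, the Iglv difference between p-UPF1 and IgG was -0.14.

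A total of 169 members passed the low-count filter (82 Ighv, 84 Igkv and 3 Iglv) and held 99.1% of V counts. Of the other 57, 8 had no count. Of the 169, 24 reached the filter's level in all 3 libraries of the Input group alone, which leaves little room for anything but lower values in the precipitates, whereas 99 reached it in all 3 groups. In p-UPF1 over IgG, 114 tested members were at least 2-fold lower (log2FC of -1 or less, adjusted P under 0.05), of which 49 were Ighv and 65 were Igkv, or 67.5% against 21.9% of all genes tested. Without a fold limit, 136 were lower (80.5%, against 42.2% of all genes). In 127 of the 169 tested members (75.1%) the p-UPF1 libraries did not overlap the IgG libraries and were lower, against 41.5% of all genes. Median log2FC was -1.16 for Ighv, -1.72 for Igkv and -0.03 for all genes. The 48 members with a mean of at least 5 CPM over all libraries, which are least touched by the filter, gave 40 calls at 2-fold and 47 without a fold limit, with a median of -1.42.

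Only 4 members were called higher in p-UPF1 than in IgG (2.37%, against 22.2% of all genes), and all had means under 2 CPM. The number was 2 without p-UPF1 B, 7 without IgG A, 7 with limma-voom, 8 with no low-count filter, 2 with only the 2 groups compared and 1 with at least 1 CPM in 3 libraries. Against Input, 122 members were at least 4-fold lower (50 Ighv and 72 Igkv, 72.2%, against 9.67% of all genes), and 157 were lower without a fold limit (92.9%, against 42.6%). No member was called 4-fold higher than Input (0 of 169, against 6.31% of all genes), and no member met the study's criteria over both IgG and Input (6.25% of all genes did). Without a fold limit, edgeR placed 3 members above Input (1.78%, against 40.8% of all genes), namely Ighv5-2, Ighv12-3 and Ighv3-3. Ighv3-3 reached the filter's level in all 3 libraries of the p-UPF1 group alone, and Ighv12-3 in those of IgG and p-UPF1 but not Input, so the filter itself favoured higher values in these segments. In IgG over Input, 101 members were at least 2-fold lower (59.8%, against 2.16% of all genes), 146 were lower without a fold limit (86.4%, against 34.7%) and none was called higher (2.07% of all genes). The counts of 0 by edgeR were also 0 at an unadjusted p under 0.05 and with DESeq2 and limma-voom. Median log2FC in IgG over Input was -0.96 for Ighv, -1.34 for Igkv and -0.10 for all genes. The p-UPF1 and IgG comparisons share the IgG libraries, and those against Input share the Input libraries.

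**Figure D2:**
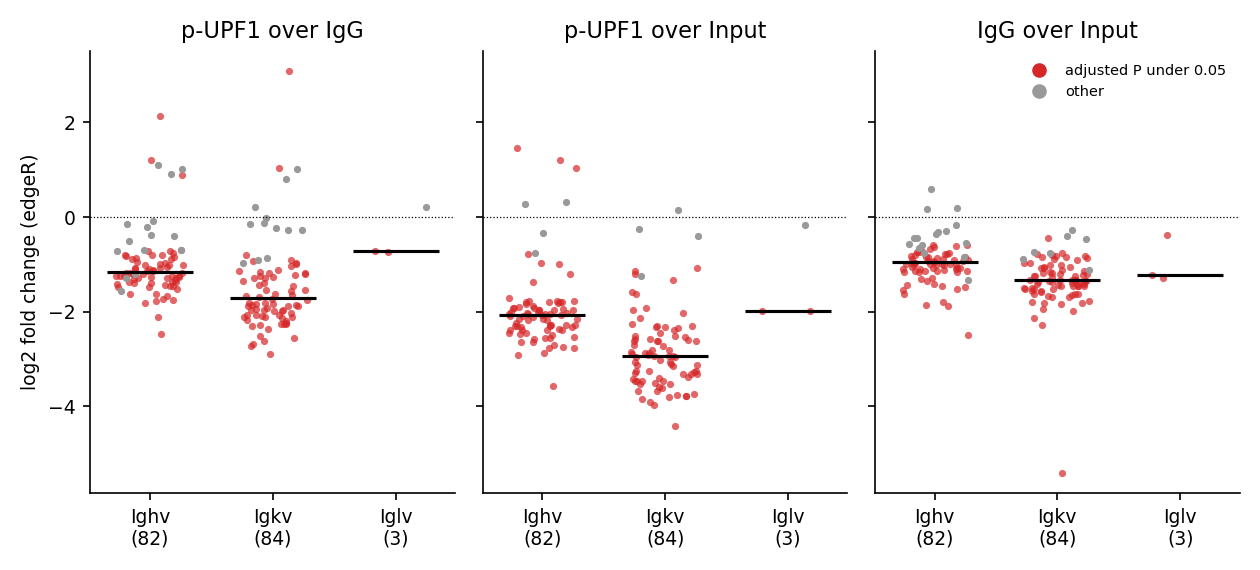
Log2FC of every tested V segment by chain, in the 3 comparisons of p-UPF1, IgG and Input libraries (numbers of segments in parentheses); red points have adjusted P under 0.05 and bars are medians. Igkv lies below Ighv in each panel, with medians of -1.72 and -1.16 in p-UPF1 over IgG, and 1 of the 3 Iglv points stays near 0.

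Among heavy-chain segments, Ighv1-26 (chr12:114788372-114788665, minus strand) had the highest mean level. Its CPM was 30.1, 31.5 and 31.5 in Input, 15.3, 12.9 and 15.8 in IgG, and 5.81, 5.55 and 6.53 in p-UPF1. The 3 groups did not overlap, and log2FC was -1.30 ± 0.10 (SE) over IgG (adjusted P = 4.68e-09) and -2.38 ± 0.10 over Input (adjusted P = 4.65e-13). Ighv1-82, toward the distal end of the locus, stood at 24.9, 29.1 and 26.1 CPM in Input, 11.7, 17.3 and 11 CPM in IgG, and 4.38, 5.42 and 5.62 CPM in p-UPF1. It too fell without overlap (log2FC -1.38 ± 0.16 over IgG, adjusted P = 6.93e-07). Ighv3-6, Ighv1-64, Ighv1-80 and Ighv1-9, which complete the 6 most abundant Ighv segments, fell over IgG by log2FC of -0.98, -1.18, -1.25 and -1.25. Ighv1-39 and Ighv5-4 fell least among heavy segments of at least 5 CPM, with log2FC of -0.73 ± 0.17 (adjusted P = 0.000948) and -0.82 ± 0.20 (adjusted P = 0.00108), although over Input they were -2.17 and -1.89. Ighv1-19 was among the segments of at least 5 CPM that differed least between IgG and Input (log2FC -0.62 ± 0.15, adjusted P = 0.00206), and it then fell by -1.45 in p-UPF1 over IgG.

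Among kappa segments, Igkv14-111 (chr6:68256404-68256869, plus strand), none of whose 50-base windows is shared, had the highest mean level, with 45.5, 47.2 and 47.0 CPM in Input, 19.7, 22.2 and 22.0 CPM in IgG, and 5.22, 5.06 and 5.71 CPM in p-UPF1. Its libraries fell into 3 separate groups, with log2FC of -2.0 ± 0.09 over IgG (adjusted P = 1.41e-12) and -3.13 ± 0.08 over Input (adjusted P = 1.39e-15). Igkv1-135 had a like level in Input (44.9, 45.7 and 42.9 CPM), lay below Igkv14-111 in every IgG library (16.3, 14.0 and 16.2 CPM) and above it in every p-UPF1 library (9.18, 8.35 and 6.89 CPM). Its log2FC over IgG was -0.93 ± 0.10 (adjusted P = 3.61e-07), so it became the kappa segment with the most counts in p-UPF1 libraries, where its share of Igkv counts was 9.21%, 7.86% and 6.95%. Igkv10-96 fell more, from 46.6, 46.2 and 48.3 CPM in Input and 16.2, 16.8 and 17 CPM in IgG to 3.88, 4.11 and 3.72 CPM in p-UPF1 (log2FC -2.09 ± 0.09 over IgG, adjusted P = 8.58e-13). The difference between Igkv1-135 and Igkv10-96 is a description, since these segments were named for their levels and rank, and was not tested.

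The steepest falls over IgG among segments of at least 5 CPM were all kappa. They were Igkv12-44 (log2FC -2.26 ± 0.19), Igkv3-4 (-2.25 ± 0.23), Igkv1-110 (-2.11 ± 0.16), Igkv12-41 (-2.11 ± 0.17) and Igkv10-96. Igkv12-44 stood at 20.0, 21.1 and 20.5 CPM in Input, 10.4, 7.2 and 6.62 CPM in IgG, and 1.52, 1.94 and 1.59 CPM in p-UPF1. Igkv6-15, Igkv1-117 and Igkv6-32, which complete the 6 most abundant kappa segments, fell over IgG by log2FC of -1.97, -1.93 and -1.89. In IgG over Input, at the same level of at least 5 CPM, Igkv17-121 (-1.69 ± 0.16), Igkv17-127 (-1.58 ± 0.12) and Igkv3-4 (-1.53 ± 0.16) were lowest, and Igkv8-19 was among the least lowered (-0.44 ± 0.15, adjusted P = 0.0208). The call for Igkv8-19 was lost under 7 of the alternatives tried, with log2FC of -0.32 to -0.37 in them.

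Families of V segments, which share sequence by definition, were compared by the summed CPM of all their members. Of the 9 Ighv families with at least 500 counts, the log2 fold of p-UPF1 over IgG ran from -0.77 ± 0.15 (SE) for Ighv2 to -1.37 ± 0.14 for Ighv14. The large Ighv1 family (60 segments) stood at -1.18 ± 0.08, and Ighv5 (10 segments), which lies near the D segments, at -0.94 ± 0.05. The 16 Igkv families ran from -1.17 ± 0.07 for Igkv2 to -2.37 ± 0.11 for Igkv15, whose only member is Igkv15-103. Igkv12 (6 segments) fell by 2.19 and Igkv4, the largest kappa family with 28 segments, by 1.25. The ranges of heavy and kappa families thus overlapped over a short stretch. By position within a locus, with no test, the 60 Ighv segments of lower coordinates, nearer the D segments, gave -0.97 ± 0.08 and the 60 of higher coordinates -1.18 ± 0.09, and for Igkv the values were -1.61 ± 0.03 and -1.71 ± 0.08. Kappa segments on the plus strand (39) and on the minus strand (64), which rearrange by inversion or deletion according to their orientation, gave -1.63 ± 0.03 and -1.68 ± 0.07.

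**Figure D3:**
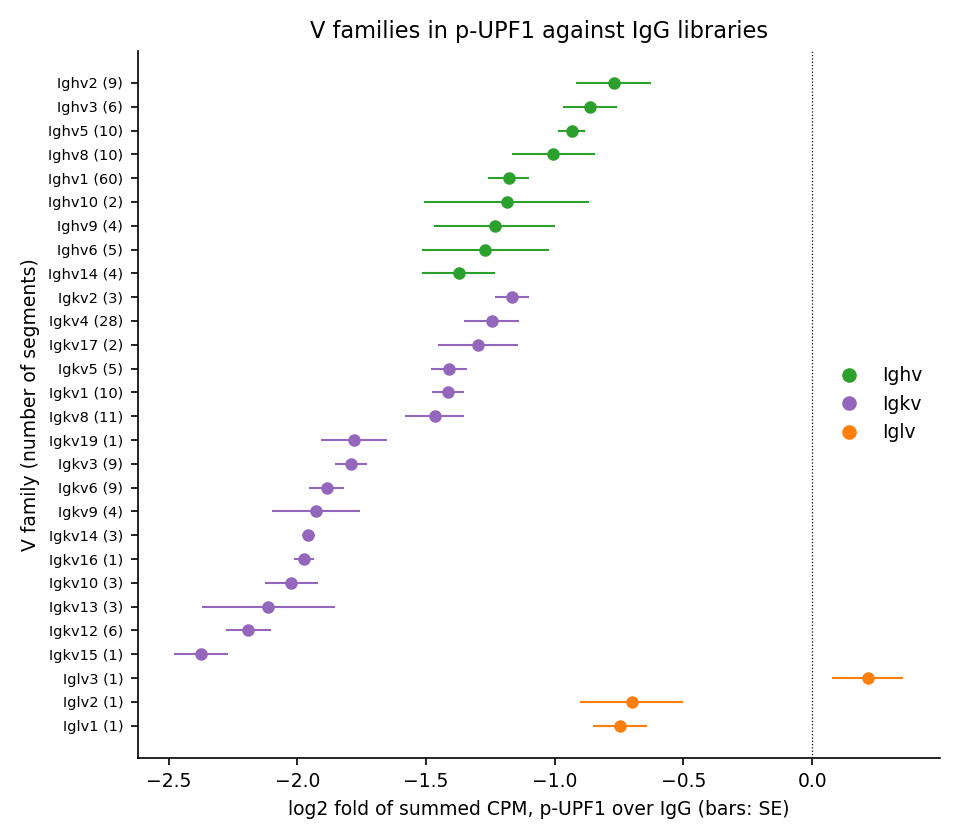
Log2 fold of the summed CPM of each V family, p-UPF1 over IgG, with the SE of 3 against 3 libraries; families with at least 500 counts, numbers of segments in parentheses. Igkv families reach -2.37 (Igkv15), Ighv families stay at -1.37 or above, and Iglv3 alone lies above 0 (0.22).

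The lambda segments did not move together. Iglv1 (chr16:19085017-19085460, minus strand), the most abundant V segment of all, had 52.2, 51.4 and 51.8 CPM in Input, 24.8, 20.1 and 21.2 CPM in IgG, and 14.0, 13.0 and 12.3 CPM in p-UPF1. It fell without overlap, with log2FC of -0.75 ± 0.08 over IgG (adjusted P = 4.43e-07) and -1.98 ± 0.08 over Input (adjusted P = 3.75e-13). Iglv2 (chr16:19260403-19260844, minus strand) stood at 11.6, 12.7 and 11.8 CPM in Input, 4.84, 4.03 and 6.0 CPM in IgG, and 2.70, 2.89 and 3.49 CPM in p-UPF1. Its values kept close to those of its near-identical relative, with log2FC of -0.71 ± 0.17 over IgG (adjusted P = 0.000939) and -1.99 ± 0.15 over Input (adjusted P = 2.21e-09). Iglv3 (chr16:19241208-19241679, minus strand) stood at 18.7, 18.2 and 16.5 CPM in Input, 15.9, 12.8 and 12.5 CPM in IgG, and 17.4, 16.1 and 14.2 CPM in p-UPF1. Its p-UPF1 libraries overlapped those of both other groups, and log2FC was 0.21 ± 0.11 over IgG (adjusted P = 0.0764) and -0.16 ± 0.10 over Input (adjusted P = 0.154). Only the IgG libraries were lower than Input (log2FC -0.38 ± 0.11, adjusted P = 0.00747), a call that was lost with library size alone (-0.26, adjusted P = 0.0624) and with only the 2 groups in the fit (-0.27, adjusted P = 0.066).

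The count of Iglv3 relative to Iglv1 was 0.357, 0.354 and 0.318 in Input, 0.64, 0.637 and 0.588 in IgG, and 1.24, 1.24 and 1.15 in p-UPF1. This ratio was chosen after the values were seen and is given with no test, whereas that of Iglv2 to Iglv1 overlapped between groups (0.223 to 0.247 in Input, 0.195 to 0.283 in the IgG libraries and 0.192 to 0.283 in p-UPF1). Per kilobase of annotated exon, Iglv3 was the highest of all V segments in p-UPF1 libraries (43.1 CPM per kb, against 37.3 for Iglv1), while in Input Iglv1 stood at 148 CPM per kb. The exons of Iglv3 overlap those of Gm35545 on the opposite strand, a gene with no row in the table. The study gives an unstranded mapping for its RNA-seq and no strand setting for RIP-seq, so reads of the pair cannot be told apart. Ighv1-23, whose exons overlap Gm40899, is the only other member with such an overlap. The value of Iglv3 over IgG passed the threshold, as a higher level in p-UPF1, under 4 of the alternatives run. It was 0.33 without IgG A (adjusted P = 0.00474), 0.29 without p-UPF1 C (adjusted P = 0.0312), 0.26 with no low-count filter (adjusted P = 0.023) and 0.21 with the column letter as a block (adjusted P = 0.0346).

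The lambda constant segments also parted. In the locus Iglv2 and Iglv3 lie upstream of Iglc2, and Iglv1 upstream of Iglc3 and Iglc1. Iglc1 stood at 55.6 ± 1.7 CPM (SD, n = 3) in Input, 32.1 ± 3.3 in the IgG libraries and 20.0 ± 1.2 in p-UPF1 (log2FC -0.68 ± 0.08 over IgG, adjusted P = 4.97e-07). Iglc2 stood at 89.0 ± 3.1 CPM in Input, 58.3 ± 4.9 in the IgG libraries and 13.0 ± 0.6 in p-UPF1 (log2FC -2.17 ± 0.07 over IgG, adjusted P = 3.65e-14), and Iglc3 at 50.8 ± 2.1, 27.7 ± 1.4 and 6.76 ± 0.82 CPM (log2FC -2.03 ± 0.09, adjusted P = 1.46e-12). Iglv3 and its downstream Iglc2 therefore differed in p-UPF1 over IgG, with values of 0.21 and -2.17 on the log2 scale. Iglc2 and Iglc3 are near-identical copies, so their split of reads is uncertain.

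**Figure D4:**
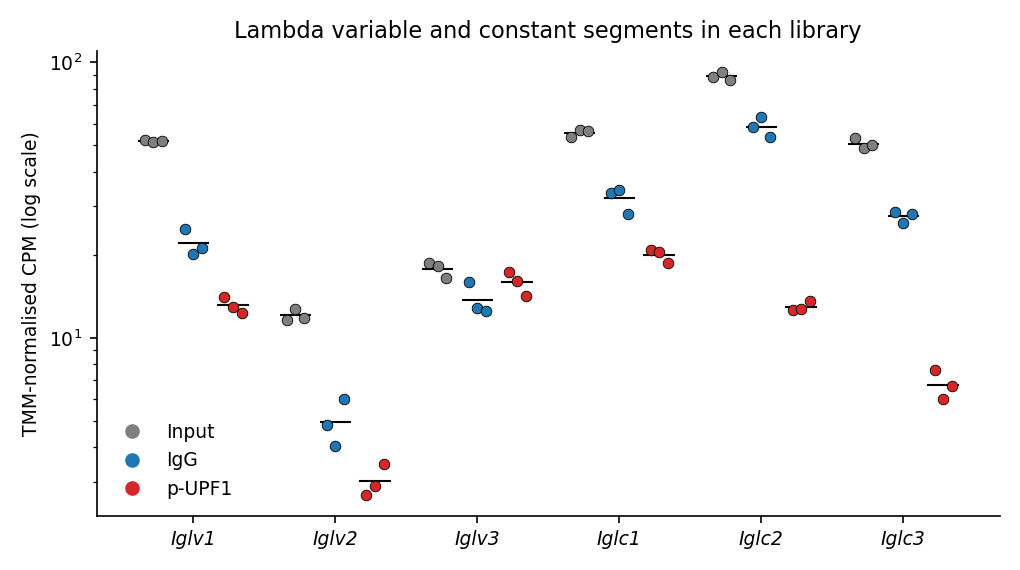
TMM-normalised CPM (log scale) of the 3 lambda V segments and 3 lambda constant segments in each Input, IgG and p-UPF1 library; lines are group means. Iglv3 lies between 12.5 and 18.7 CPM in all 9 libraries, whereas Iglc2 falls from 89.0 CPM in Input to 13.0 CPM in p-UPF1.

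The balance of heavy to light V counts moved toward heavy in the precipitates. The ratio of Ighv to summed Igkv and Iglv counts was 0.592, 0.577 and 0.592 in Input, 0.697, 0.758 and 0.714 in IgG, and 0.845, 0.94 and 0.981 in p-UPF1. The groups did not overlap, and p-UPF1 exceeded IgG 1.27-fold and Input 1.57-fold (exact two-sided permutation p = 0.1 for each). When only the 70 segments with under 10% of windows shared were counted, the log2 ratio of p-UPF1 to IgG was 0.67 in place of 0.35.

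Heavy V counts were also compared with the heavy constant regions. Ighv counts amounted to 9.49%, 9.69% and 9.67% of the counts on the 8 heavy constant genes in Input, to 7.54%, 8.15% and 7.51% in IgG, and to 2.59%, 2.86% and 2.87% in p-UPF1. The ratio was 2.79-fold lower in p-UPF1 than in IgG and 3.47-fold lower than in Input (exact permutation p = 0.1). Against Ighm alone, the constant region of IgM, Ighv counts were 4.64% to 5.13% in p-UPF1, 9.6% to 10.4% in IgG and 11.4% to 11.7% in Input. Kappa V counts stayed closer to Igkc, the kappa constant region, at 66.3%, 71.1% and 70.0% in Input, 56.6%, 58.2% and 54.6% in IgG, and 45.8%, 47.9% and 44.1% in p-UPF1. That was 1.23-fold lower in p-UPF1 than in IgG (exact permutation p = 0.1). Per kilobase, summed Ighv levels were 47.1% ± 0.6 (SD, n = 3) of the summed constant level in Input and 13.5% ± 0.8 in p-UPF1, Igkv levels were 62.9% ± 2.3 and 41.7% ± 1.8, and Iglv levels were 37.5% ± 0.4 and 71.4% ± 2.6. Of the lambda V segments, Iglv3 stood at 17.8 CPM in Input and 15.9 CPM in p-UPF1, whereas Iglv1 went from 51.8 to 13.1 CPM and Iglv2 from 12.1 to 3.0 CPM. Summed lambda V levels fell from 230 to 89.1 CPM per kb, and the lambda constant level fell further, from 615 to 125 CPM per kb. Of the 226 records, 98 have a single annotated exon and lack the leader, which affects these levels per length. Whether it also affects the differences between groups was not tested.

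**Figure D5:**
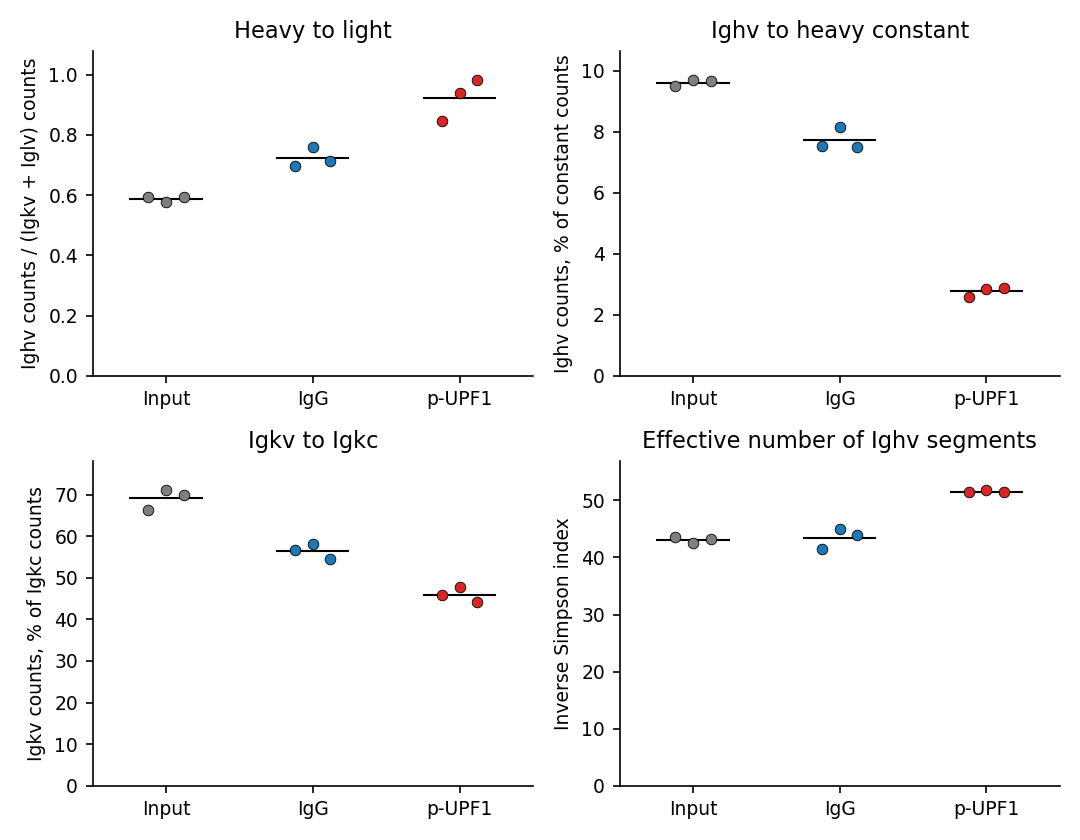
Ratio of heavy to light V counts, Ighv counts as a percent of heavy constant counts, Igkv counts as a percent of Igkc counts, and effective number of Ighv segments (inverse Simpson index) in each library; lines are group means. Heavy to light rises from 0.587 in Input to 0.922 in p-UPF1, while Ighv to constant falls from 9.62% to 2.77%.

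The partner genes of the V segments, fixed as a list, differed among themselves. Ighm was 4376 ± 6 CPM (SD, n = 3) in Input, 2635 ± 89 in the IgG libraries and 2508 ± 95 in p-UPF1, with a log2FC over IgG of -0.07 ± 0.04 (adjusted P = 0.0832). Of the 8 heavy constant genes 3 were called higher in p-UPF1 over IgG (against 22.2% of all genes) and none lower (against 21.9%): Ighg1 (log2FC 1.39 ± 0.03), Ighg2b (1.05 ± 0.17) and Ighg3 (2.49 ± 0.08). Of the 4 light constant genes, 3 were called lower (against the same 21.9%) and none higher, with Igkc at 1129 ± 15 CPM in Input, 568 ± 15 in the IgG libraries and 222 ± 4 in p-UPF1 (log2FC -1.36 ± 0.04 over IgG). Cd79a, a signalling subunit of the B cell receptor, fell by 2.10 on the log2 scale and its partner Cd79b by 0.42. Jchain, which joins IgM and IgA into polymers, fell by 1.02. Of 12 J segments 10 were tested and 8 were called lower in p-UPF1 over IgG (against 21.9% of all genes), whereas in IgG over Input none was called lower (against 2.16%) and 1, Ighj2, was called higher (log2FC 1.06, against 2.07%). Ighj2 reached the filter's level in all 3 libraries of the IgG group alone (1.33, 1.53 and 0.872 CPM, against 0.255 to 1.01 in Input and 0.169 to 0.272 in p-UPF1), so the low-count filter favoured its call over Input and its lower value in p-UPF1. None of 10 D segments passed the filter. The recombination enzymes Rag1, Rag2 and Dntt stayed under 0.2 CPM, no surrogate light chain gene (Vpreb1, Vpreb2 and Igll1) passed the filter, and the related Vpreb3 did (log2FC 0.16 ± 0.17 over IgG, adjusted P = 0.406).

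Usage within the chains was also compared. Across 82 tested Ighv segments the log2 levels of IgG and Input had Pearson r = 0.956, those of p-UPF1 and IgG r = 0.868 and those of p-UPF1 and Input r = 0.81. Across 84 Igkv segments the values were 0.962, 0.866 and 0.851. These are descriptions across segments that share libraries, and the p-UPF1 levels rest on fewer counts. The effective number of Ighv segments, the inverse Simpson index of their shares, was 43.6, 42.6 and 43.2 in Input, 41.5, 45.0 and 43.9 in IgG, and 51.4, 51.8 and 51.5 in p-UPF1. The p-UPF1 libraries lay above all others (exact permutation p = 0.1 against IgG), while the index of Igkv overlapped between p-UPF1 (37.7 to 42.4) and IgG (36.4 to 39.7; exact permutation p = 0.3). In p-UPF1 over IgG, log2FC was more negative in segments with higher Input levels (Spearman rho = -0.355 over 82 Ighv and -0.365 over 84 Igkv segments). Only tested segments entered, and 4 Ighv and 1 Igkv of them did not reach the filter's level in all 3 Input libraries. These were Ighv3-3, Ighv12-3, Ighv1-11 and Ighv1-49 (log2FC 1.01, 0.88, 2.14 and -0.51) and Igkv4-60 (-0.90). The filter thus bears on this trend, and its part was not tested.

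Rare V segments gave values of both directions. The 57 members that did not pass the filter summed to 9.49 ± 0.57 CPM (SD, n = 3) in Input, 4.55 ± 0.82 in the IgG libraries and 6.04 ± 1.02 in p-UPF1, a log2 fold of 0.41 ± 0.21 (SE) over IgG and -0.66 ± 0.15 over Input, whereas the 3 chains as a whole gave -1.09, -1.66 and -0.34 over IgG. Of the 169 tested members, 164 reached the filter's level in all 3 Input libraries. The set that failed was thus selected for low Input levels, which bears on its contrast with the whole chains. Of the 64 tested members with a mean under 2 CPM, 26 were called lower (against 21.9% of all genes) and 4 higher (against 22.2%) in p-UPF1 over IgG at 2-fold, with a median log2FC of -0.90. Igkv9-123 (log2FC -2.72 ± 0.66, adjusted P = 0.0012) and Igkv12-38 (-2.68 ± 0.59, adjusted P = 0.00054) were among those that fell. Among the higher ones, Ighv5-2 (chr12:113578504-113578990, minus strand) had 26, 21 and 20 counts in Input, 21, 13 and 20 in IgG, and 42, 57 and 47 in p-UPF1. Its p-UPF1 libraries lay above all others, with log2FC of 1.20 ± 0.28 over IgG (adjusted P = 0.000925) and 1.04 ± 0.27 over Input (adjusted P = 0.00221). Ighv12-3 had 12, 11 and 13 counts in Input, 21, 15 and 13 in IgG, and 31, 41 and 34 in p-UPF1 (log2FC 0.88 ± 0.31 over IgG, adjusted P = 0.0158), which is higher only without a fold limit. Ighv1-11, with 3, 4 and 3 counts in IgG and 11, 26 and 16 in p-UPF1, was called higher than IgG (log2FC 2.14 ± 0.55, adjusted P = 0.00205) but not than Input (0.27 ± 0.43, adjusted P = 0.561). Igkv8-16 had 24, 24 and 15 counts in Input, 0, 0 and 1 in IgG, and 3, 7 and 3 in p-UPF1, so its p-UPF1 libraries lay above IgG but below Input. Its p-UPF1 rate was 9.91 times that of IgG with an exact 95% counting interval of 1.49 to 421, and 71.5% of its windows occur in other V segments. These rare segments, other than those that the rule for named genes gives, were named after their values were seen.

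RefSeq and GENCODE differ on which V segments are pseudogenes. RefSeq lists 348 V segments in all, 123 of them pseudogenes, of which 1 is in the table, with no count. GENCODE classes 213 members as functional V genes and 12 as V pseudogenes, with 1 unmatched. The 12 GENCODE pseudogenes summed to 36, 35 and 39 counts in Input, 14, 14 and 37 in IgG, and 55, 55 and 42 in p-UPF1. This was 0.109%, 0.127% and 0.145% of V counts in Input, 0.123%, 0.109% and 0.312% in IgG, and 0.938%, 0.927% and 0.744% in p-UPF1. The difference was 0.69 percentage points over IgG and 0.74 over Input, and 0.28 and 0.29 with only segments that pass the filter. The p-UPF1 libraries lay above all others (exact permutation p = 0.1 against either group), whereas IgG overlapped Input (p = 0.8, exact permutation test). In CPM the pseudogenes stood at 1.74 ± 0.26 in Input, 1.12 ± 0.68 in the IgG libraries and 2.24 ± 0.30 in p-UPF1, and functional V genes fell from 1366 ± 27 to 622 ± 27 and 255 ± 10 CPM. Only Igkv4-73 and Igkv4-60 of these 12 were tested. Igkv4-73 had 13, 18 and 18 counts in Input, 6, 6 and 12 in IgG, and 21, 18 and 19 in p-UPF1 (log2FC 1.03 ± 0.41 over IgG, adjusted P = 0.0274), and Igkv4-60 had 13, 9 and 10, then 2, 1 and 10, then 4, 4 and 0 counts (log2FC -0.90 ± 0.88 over IgG, adjusted P = 0.351). The call for Igkv4-73 over IgG was lost under 8 of the alternatives tried, with log2FC of 0.87 to 1.07 in them. Over Input, Igkv4-73 was not higher (log2FC 0.14 ± 0.36, adjusted P = 0.718). Igkv4-60 was called lower than Input (log2FC -2.03, adjusted P = 0.0193). That call was lost without p-UPF1 C (adjusted P = 0.0807) and without Input A (adjusted P = 0.0545).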

How the data were processed

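Gene counts of 9 RIP-seq libraries (3 Input, 3 IgG, 3 p-UPF1) were analysed. Per the labels, the deposited counts came from NEBNext Ultra II Directional libraries, with cutadapt, HISAT2, featureCounts and mm10; versions, strand setting and the treatment of multi-mapped reads in RIP-seq are not given in the sources used here. Gene IDs were named through RefSeq (25275 of 27179; 18 more through GENCODE), and the GRCm38 genome of that build gave positions and sequences. Members and gene lists were chosen with earlier results of these data known.

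Counts were tested with edgeR 4.0.16 (R 4.3.3; quasi-likelihood, TMM, default filterByExpr, prior count 0.125) over all 9 libraries and 13129 genes, with Benjamini-Hochberg adjustment (adjusted P). Thresholds followed the study's criteria, log2FC of 1 over IgG and 2 over Input, with 1 for IgG over Input. CPM values are TMM-normalised. Sums over segments were compared by exact permutation of libraries. On simulated counts for p-UPF1 over IgG (12920 genes), 181 of 200 changed genes were recovered with 11 false calls. Named segments were the 6 most abundant of Ighv and of Igkv, all Iglv, the 5 highest and 5 lowest log2FC over IgG and the 3 highest and 3 lowest of IgG over Input at a mean of at least 5 CPM, and up to 4 pseudogenes. Library totals limit precision: intervals on single counts cover counting error only. Alternatives were other scalings (also with DESeq2 1.42.0 and limma 3.58.1), filters, priors, samples and segment sets. No column of the table was left unused. One marker of the B cell list is not reported here.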

Additional observations from a re-analysis of the deposited data

How the results depend on the processing

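With the column letter as a replicate block, 112 members were called lower and 4 higher in p-UPF1 over IgG, 124 lower when Input was the baseline and 103 lower for IgG against Input; among named segments this block changed the call of Iglv3 over IgG alone. Deviations of same-letter libraries from their group means correlated by 0.0283 to 0.105 across 13129 genes; each library correlated best with its own letter, a hint from the data and not the design. Beside the alternatives set at the outset, 3 choices were added after seeing the data: this block, another TMM reference library, and only segments with few shared windows. The numbers of members called lower stayed within 1.5 times: 114 in p-UPF1 over IgG (100 to 125), 122 when Input was the baseline (108 to 131) and 101 for IgG against Input (79 to 112). The 4 members called higher in p-UPF1 over IgG became 7 with limma-voom, 8 without a low-count filter, 1 with at least 1 CPM in 3 libraries and 2 with only the 2 groups compared, and 2 (without p-UPF1 B) to 7 (without IgG A) with libraries left out. None met both p-UPF1 criteria under any alternative run. With TMM CPM in place of library totals, the Ighv difference was -1.09 over IgG and -0.95 for IgG over Input, and the Igkv difference -1.66 and -1.28, since TMM moved the median of all genes in IgG over Input from 0.01 to -0.10 and in p-UPF1 over IgG from -0.19 to -0.03. Without the segment with the most counts of each chain, the Iglv differences were -0.14 for p-UPF1 over IgG, -0.70 when Input was the baseline, and -0.56 in IgG against Input. With only segments that share few windows, which leaves Iglv3 alone for lambda, they were 0.053, -0.21 and -0.26; Ighv gave -0.81 over IgG and -1.64 over Input, Igkv -1.09 for IgG over Input, heavy to light 0.67, 0.86 and 0.19, heavy V to constant -1.04 and -1.35, kappa V to constant -0.22 for IgG over Input, and the pseudogene share 0.88 percentage points over Input. With only segments that pass the filter, the pseudogene share differed by 0.28 points over IgG and 0.29 over Input; with the RefSeq classes it had no counts. Of 1693 values for 27 named segments, 1666 kept direction and side of the threshold, 19 lost the call, 6 gained it and 2 turned: Igkv4-73 in p-UPF1 over Input was -0.11 without Input A (to 0.27 without Input B), and Igkv4-60 over IgG was 0.56 without IgG C. The cause of these changes was not tested.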
